A study of Homo sapiens with 10 samples.

Results

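The genes described here are 10 immediate early genes of the AP-1 and EGR group: FOS, FOSB, FOSL1, FOSL2, JUN, JUNB, JUND, ATF3, EGR1 and IER2. They were taken by symbol from the count tables as 10 of 28265 gene symbols. All 10 passed the filter on low counts and were tested with 21014 genes in all.

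RNA was measured by bulk RNA-seq in thyroid organoids grown from human embryonic stem cells, with 2 biological replicate libraries at each of days 16, 23, 31, 38 and 45 of differentiation. Each library came from pooled wells, which were dissociated with enzymes and sorted by flow cytometry for live NKX2-1 GFP+ cells, and the sorted cells went straight into lysis reagent. Counted totals ran from 7247268 to 10333933 per library, and 3 counts, taken as the floor of a library for counting error only, equalled 0.290 to 0.414 CPM (counts scaled to library size). The samples were bulk RNA, so fewer cells expressing a gene and less RNA of that gene per cell cannot be told apart.

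All 5 groups shared the cell line ESIBIe003-A-6, a selected recombinant line in which GFP is inserted into NKX2-1 on one chromosome and doxycycline switches on added copies of NKX2-1 and PAX8. By the study's protocol all had earlier received activin A and then doxycycline. The day 16 cells had been kept in basal medium after doxycycline, although their sample titles name c-AMP. The day 23 and day 31 cells are labelled c-AMP, meaning the cell-permeable analogue 8-br-cAMP, although the protocol puts the change of medium just before day 31. The day 38 cells received recombinant TSH with dexamethasone, a synthetic glucocorticoid. The day 45 cells in addition received SB431542, an inhibitor of the TGFβ type I receptor kinases, and their titles leave out dexamethasone. At every step day and medium changed together or day changed alone, so the effects of time and of an added agent cannot be told apart. Among the defining thyroid genes, PAX8, NKX2-1, FOXE1 and HHEX had counts in all libraries, and SLC5A5 was at 0 in 2 libraries.

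Immediate early genes are transcribed within minutes of a stimulus, from factors that are already present in the cell, such as serum response factor with its partners and the cAMP-responsive factor CREB. The FOS and JUN families are basic leucine zipper proteins that pair with each other to form AP-1, which binds a short palindromic element in the control regions of many genes, and EGR1 is a zinc finger factor that binds GC-rich elements. In thyroid cells, TSH acts largely through cAMP, and these genes are known to respond to both growth factors and cAMP. They are also known to respond to handling of cells, enzymatic dissociation included.

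Promoter windows of members that moved in opposite directions between days 38 and 45, and of JUND, which was called at no step, are shown with the short elements in them that CREB, serum response factor and AP-1 are known to bind. Elements further upstream than these windows were not searched. The windows are from RefSeq on build GRCh38.p14 and run from 250 bases before to 50 bases after the start site, 5′ to 3′ on the gene's strand. Capitals mark matches, on either strand, to the CRE core TGACG, which reads CGTCA when it lies on the other strand, the full cAMP response element TGACGTCA, which contains the core on both strands, the serum response element, the AP-1 element TGANTCA and the TATA element TATAAA. FOS lies at chr14:75278578-75278877 on the plus strand, EGR1 at chr5:138465229-138465528 (plus), FOSB at chr19:45467746-45468045 (plus), FOSL2 at chr2:28392608-28392907 (plus) and JUND at chr19:18281573-18281872 (minus).
FOS: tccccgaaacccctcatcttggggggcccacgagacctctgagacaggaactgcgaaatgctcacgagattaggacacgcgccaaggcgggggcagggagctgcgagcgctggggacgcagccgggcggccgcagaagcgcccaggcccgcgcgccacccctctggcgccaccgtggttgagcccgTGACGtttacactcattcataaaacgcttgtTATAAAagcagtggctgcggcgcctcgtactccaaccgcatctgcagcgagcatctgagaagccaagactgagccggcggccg
EGR1: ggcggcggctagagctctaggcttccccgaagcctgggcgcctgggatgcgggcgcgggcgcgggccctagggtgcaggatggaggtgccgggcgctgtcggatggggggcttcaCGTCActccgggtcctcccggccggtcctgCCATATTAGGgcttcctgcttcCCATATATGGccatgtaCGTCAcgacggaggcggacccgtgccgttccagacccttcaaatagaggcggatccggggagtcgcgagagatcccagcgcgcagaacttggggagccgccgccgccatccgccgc
FOSB: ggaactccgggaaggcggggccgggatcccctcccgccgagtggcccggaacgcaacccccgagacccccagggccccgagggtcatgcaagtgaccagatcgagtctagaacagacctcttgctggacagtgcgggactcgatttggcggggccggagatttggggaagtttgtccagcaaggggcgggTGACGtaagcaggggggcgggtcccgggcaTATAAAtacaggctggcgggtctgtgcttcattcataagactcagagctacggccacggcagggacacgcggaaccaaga
FOSL2: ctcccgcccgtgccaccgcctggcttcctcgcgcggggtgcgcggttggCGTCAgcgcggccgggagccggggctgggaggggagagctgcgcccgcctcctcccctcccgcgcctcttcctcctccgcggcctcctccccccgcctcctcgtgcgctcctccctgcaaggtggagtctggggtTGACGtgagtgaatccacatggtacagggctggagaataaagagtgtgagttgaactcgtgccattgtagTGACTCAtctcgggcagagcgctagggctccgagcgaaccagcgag
JUND: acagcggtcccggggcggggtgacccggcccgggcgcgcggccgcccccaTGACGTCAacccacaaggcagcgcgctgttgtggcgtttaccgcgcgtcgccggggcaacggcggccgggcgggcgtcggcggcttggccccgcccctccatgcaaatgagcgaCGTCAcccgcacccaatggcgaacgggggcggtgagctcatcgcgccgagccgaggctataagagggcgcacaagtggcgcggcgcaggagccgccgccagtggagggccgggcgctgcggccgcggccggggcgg

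A window was found for 9 of the 10 members; FOSL1 was not among those used. The CRE core was present in 8 of these 9 members, all but ATF3, and in 24.5% of all 34943 windows. ATF3 was searched in 2 windows, chr1:212565157-212565456 and chr1:212614768-212615067. Any start site of ATF3 outside these was not searched, so a CRE core elsewhere in its promoters would be missed. It began 64 bases before the start site in FOS, 60 in FOSB and 66 in FOSL2, and FOSL2 held another 201 bases before the start. In JUN it began 123 bases before, in JUNB 137, in IER2 140, in EGR1 135 and 66, and in JUND 200, 197 and 86. JUND was the member with the full element, which 1.84% of windows held. Within these windows EGR1 was the member with the serum response element (1.30% of windows), with matches beginning 105 and 83 bases before the start. FOSL2 was the member with the AP-1 element (7.72% of windows), 5 bases past its start site. The TATA element was found in FOS, FOSB, JUNB and ATF3, and in 11.6% of windows. It began 33, 30 and 31 bases before the start in FOS, FOSB and JUNB, and 230 bases before it in an ATF3 window. The EGR elements GCGTGGGCG (0.796% of windows) and GCGGGGGCG (5.06%) were found in none of the 9. These are matches of letters in a window and were not tested as binding sites.

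EGR1, FOS and JUN had the 3 highest mean levels per kilobase of exon on days 16 to 38, and 8 of 10 members were called between days 38 and 45, as were 11.2% of all genes tested. At day 45 FOS was 4.06-fold lower than at day 38 and EGR1 1.97-fold lower, whereas FOSL1 was 38.1-fold, FOSL2 3.10-fold, ATF3 1.97-fold and FOSB 1.75-fold higher. JUN and IER2 were also lower at day 45, and JUNB and JUND were not called at that step. Levels are given as CPM scaled by trimmed mean of M-values (TMM) factors, and a gene was called when its Benjamini-Hochberg adjusted p was below 0.05 in edgeR's quasi-likelihood test fitted over all 10 libraries. Per kilobase of exon, EGR1 had the highest mean level of the members on each day, although its day 16 libraries overlapped those of FOS. FOS was next on days 16 to 38 and ranked 6 of 10 on day 45, where it overlapped FOSB. FOSL1 was lowest of the members on days 16 to 38, and FOSL2 was lowest on day 45.

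**Figure D1:**
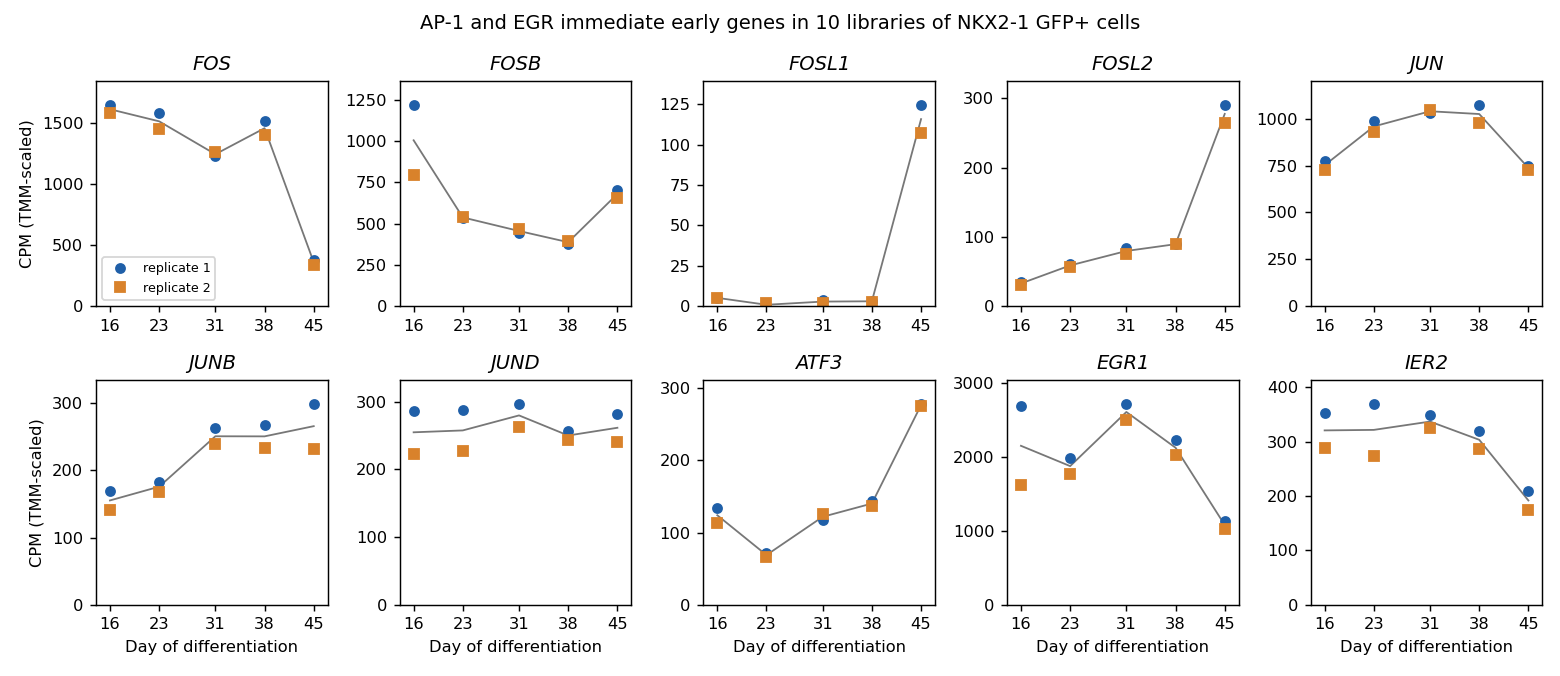
Level of each member in TMM-scaled CPM (vertical axis, from 0, a separate scale per gene) against day of differentiation (horizontal axis), with circles for replicate 1, squares for replicate 2 and a line through the day means. FOS drops from 1401 or more at day 38 to 382 or less at day 45, while FOSL1, FOSL2 and ATF3 are highest at day 45 and JUND stays between 223 and 297.

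FOS encodes the founding partner of JUN in AP-1. The gene, ENSG00000170345, lies at chr14:75278826-75282230 (GRCh38, GENCODE 44, plus strand). Its level was 1649 and 1582 CPM on day 16, 1581 and 1451 on day 23, 1231 and 1261 on day 31, 1518 and 1401 on day 38, and 382 and 338 on day 45. The libraries of days 16 to 38 all lay at 1231 CPM or more and both day 45 libraries lay far below them. The fall from day 38 to day 45 was 2.02 ± 0.11 on the log2 scale (SE), with an edgeR adjusted p of 5.72e-15, the second smallest p-value of the genes tested. Against day 16, FOS was 4.49-fold lower at day 45 (log2 fold change -2.17 ± 0.11, edgeR adjusted p = 4.17e-17). Between neighbouring days up to day 38 the log2 fold change of FOS stayed between -0.28 and 0.23, and edgeR called none of these steps, while DESeq2 called FOS as lower at day 31 than at day 23 (adjusted p = 0.0295), as did edgeR on the libraries of those days alone (adjusted p = 0.0422).

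FOSB encodes a close paralogue of FOS and is also known for its truncated, long-lived splice form, which gene counts do not separate. The gene (ENSG00000125740, chr19:45467995-45475179, plus strand) was at 1218 and 792 CPM on day 16, 533 and 542 on day 23, 442 and 468 on day 31, 379 and 396 on day 38, and 706 and 653 on day 45. The day 16 libraries stood highest but far apart from each other, day 38 was lowest, and day 45 lay above days 23 to 38 without overlap. FOSB fell by 0.90 ± 0.14 (log2, SE) between days 16 and 23 (edgeR adjusted p = 9.81e-06), and by 0.545 without replicate 1 of day 16, where it was still called. It rose by 0.81 ± 0.14 between days 38 and 45 (edgeR adjusted p = 4.78e-05). At day 45 it was still below day 16 (log2 fold change -0.56 ± 0.14, edgeR adjusted p = 0.00153), but without replicate 1 of day 16 this difference was -0.23 and no longer called (edgeR adjusted p = 0.187).

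FOSL1 encodes FRA1, an AP-1 subunit that lacks the transactivation domain of FOS and is itself known as an AP-1 target gene. For this low-count gene (ENSG00000175592, chr11:65892049-65900573, minus strand) the raw counts were 42 and 40 on day 16, 0 and 15 on day 23, 37 and 16 on day 31, 30 and 24 on day 38, and 857 and 981 on day 45. In CPM, day 38 held 3.24 and 2.79 and day 45 held 124 and 107. No other day came near the day 45 libraries. The rise from day 38 to day 45 was 5.25 ± 0.44 (log2, SE; edgeR adjusted p = 8.93e-11), and the rise over day 16 was 4.49 ± 0.42 (edgeR adjusted p = 1.36e-10). The fall from day 16 to day 23, -2.58 ± 0.55 (edgeR adjusted p = 0.00116), rested on few counts, with 0 in one day 23 library. It was not called by DESeq2 (adjusted p = 0.0893) or by edgeR on the libraries of those days alone (adjusted p = 0.182), and leaving out single libraries moved it from -8.46 to -1.57, the lowest of these without replicate 2 of day 23.

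FOSL2 encodes FRA2, the other FOS-related subunit without that activation domain. Its mean was higher on each successive day (ENSG00000075426, chr2:28392448-28417317, plus strand). Its level was 35.1 and 30.4 CPM on day 16, 61.5 and 56.1 on day 23, 83.4 and 76.0 on day 31, 89.8 and 89.2 on day 38, and 290 and 265 on day 45. No neighbouring days overlapped. The steps from day 16 to 23 (log2 fold change 0.84 ± 0.16, edgeR adjusted p = 0.000334) and from day 38 to 45 (1.63 ± 0.15, edgeR adjusted p = 1.18e-09) were called, and those to day 31 (0.44 ± 0.15, adjusted p = 0.17) and day 38 (0.17 ± 0.15, adjusted p = 0.548) were not. Over the whole course FOSL2 was 8.47-fold higher at day 45 than at day 16 (log2 fold change 3.08 ± 0.17, edgeR adjusted p = 1.30e-16).

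The 4 FOS-family genes together summed to 695 ± 69.7 CPM per kilobase of exon at day 16 (SD, n = 2), 581 ± 27.5 on day 23, 486 ± 8.58 on day 31, 542 ± 24.0 on day 38 and 335 ± 25.4 on day 45. FOS made up 84.5% of this sum at day 38 (83.8% and 85.2% in the libraries) and 33.6% at day 45 (33.4% and 33.9%). FOSB went from 12.9% to 36.5%, FOSL1 from 0.294% to 18.2% and FOSL2 from 2.31% to 11.6%. The share held by FOS and FOSB together thus shrank as that of the 2 FRA genes grew, and the replicate libraries differed little in these shares. The shares follow from the levels above and carry no test of their own.

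**Figure D2:**
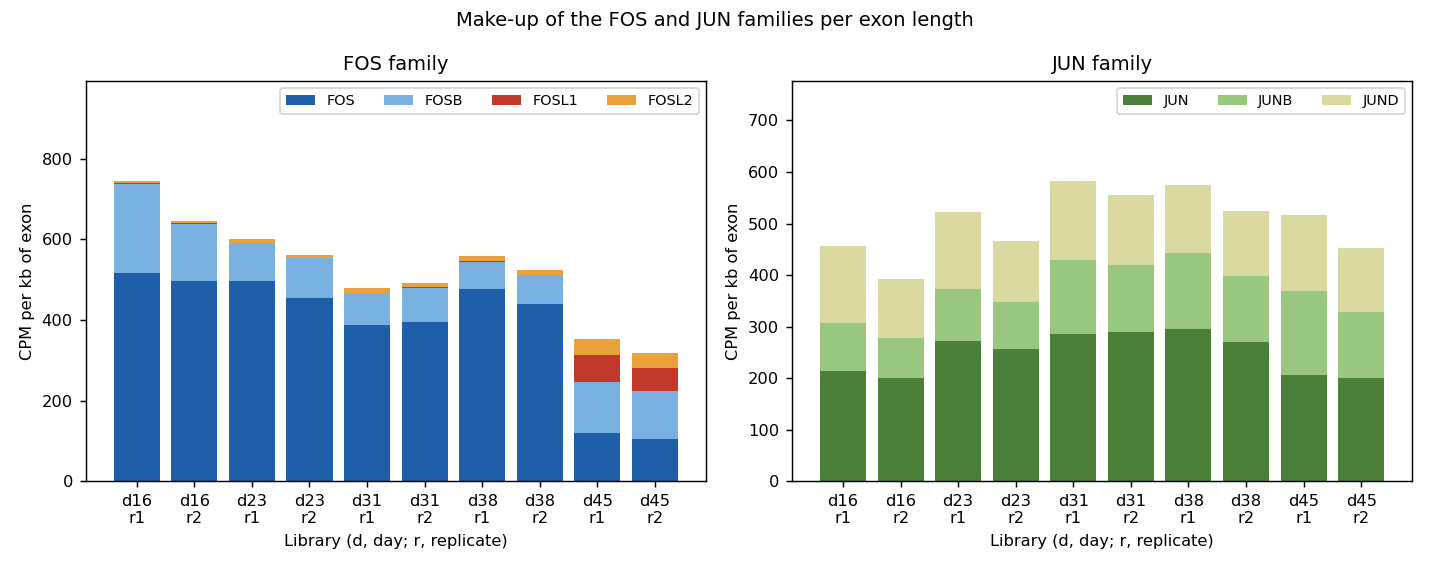
CPM per kilobase of exon (vertical axis, from 0) of the FOS family (left) and the JUN family (right) stacked by gene, with 1 bar for each of the 10 libraries (horizontal axis, d for day and r for replicate). FOS fills 69.5 to 85.2% of the bars of days 16 to 38 and 33.4 to 33.9% at day 45, where FOSL1 and FOSL2 become visible, while the JUN bars keep all 3 genes at each day.

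JUN encodes the main partner of the FOS proteins and can also pair with itself. Its level (ENSG00000177606, chr1:58776845-58784048, minus strand) was 777 and 727 CPM on day 16, 990 and 928 on day 23, 1033 and 1048 on day 31, 1073 and 978 on day 38, and 748 and 728 on day 45. Days 16 and 45 overlapped, and both lay below the 3 days between them. JUN rose by 0.35 ± 0.11 (log2, SE) between days 16 and 23 (edgeR adjusted p = 0.0297) and fell by 0.475 ± 0.11 between days 38 and 45 (edgeR adjusted p = 0.00242). The first of these calls was lost under 5 of 17 other settings, among them without replicate 2 of day 16 or either library of day 23, with log2 fold changes from 0.30 to 0.41 over all of them. The second was lost without replicate 1 of day 38 (log2 fold change -0.407, edgeR adjusted p = 0.0665).

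JUNB encodes a JUN relative that activates transcription more weakly and can oppose JUN. Its level (ENSG00000171223, chr19:12791486-12793315, plus strand) was 170 and 141 CPM on day 16, 183 and 169 on day 23, 263 and 239 on day 31, 268 and 234 on day 38, and 299 and 233 on day 45. The last 3 days overlapped one another and lay above the first 2. JUNB was higher at day 31 than at day 23 (log2 fold change 0.51 ± 0.14, edgeR adjusted p = 0.0452), a call that 7 of 17 other settings did not keep, among them leaving out any library of days 23, 31 or 38. It was 1.71-fold higher at day 45 than at day 16 (0.77 ± 0.14, edgeR adjusted p = 6.82e-05). Of its exon bases 14.2%, or 259, are also exons of HOOK2 on the opposite strand; the strand setting of the counting was not stated, HOOK2 had 2912 counts over all libraries and JUNB 18907, and the level of JUNB is uncertain to that extent.

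JUND encodes the JUN protein known for steady expression in resting cells. Its level (ENSG00000130522, chr19:18279694-18281622, minus strand) was 286 and 223 CPM on day 16, 287 and 227 on day 23, 297 and 262 on day 31, 256 and 243 on day 38, and 282 and 241 on day 45. Days 31 and 38 did not overlap each other, all other pairs of days did, and the day means stayed between 250 and 280 CPM. It was the member that was not called in the test for a difference between any of the days (edgeR adjusted p = 0.866). Its log2 fold change over the last step was 0.06, with -0.22 to 0.35 spanned by 2 SE on either side. In the sum of the JUN family, JUND held 23.6% at day 38 and 28.0% at day 45, JUN 51.5% and 42.1%, and JUNB 24.9% and 29.9%. That sum was 549 ± 36.4 CPM per kilobase at day 38 (SD, n = 2) and 484 ± 44.6 at day 45, and the libraries of the 2 days did not overlap.

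ATF3 encodes a stress-induced zipper protein that pairs with JUN and often represses. Its level (ENSG00000162772, chr1:212565334-212620777, plus strand) was 134 and 114 CPM on day 16, 71.1 and 66.5 on day 23, 117 and 126 on day 31, 143 and 137 on day 38, and 278 and 275 on day 45. The day 23 libraries lay below and the day 45 libraries above those of each other day. ATF3 fell by 0.85 ± 0.14 (log2, SE) to day 23 (edgeR adjusted p = 6.79e-05), rose by 0.82 ± 0.14 to day 31 (edgeR adjusted p = 0.000449) and by 0.98 ± 0.14 between days 38 and 45 (edgeR adjusted p = 4.17e-06). Each of these calls held under all 17 other settings.

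EGR1, the zinc finger factor, lies at chr5:138465479-138469303 on the plus strand (ENSG00000120738). Its level was 2688 and 1615 CPM on day 16, 1980.1 and 1774 on day 23, 2720.3 and 2499 on day 31, 2224 and 2027 on day 38, and 1131 and 1029 on day 45. The day 16 libraries differed more from each other than those of each other day, and the day 45 libraries lay below all the rest. EGR1 fell by 0.98 ± 0.14 (log2, SE) between days 38 and 45 (edgeR adjusted p = 3.03e-06), and leaving out single libraries kept this between -1.05 and -0.91. The difference between days 45 and 16 was -0.99 ± 0.14 (edgeR adjusted p = 6.22e-07), and -0.59 without replicate 1 of day 16, where it was still called. EGR1 was higher at day 31 than at day 23 by 0.475 ± 0.14, which was not called (edgeR adjusted p = 0.0574). Some but not all alternative settings called this rise, among them edgeR on the libraries of those days alone (adjusted p = 0.00168). EGR1 was lower at day 38 than at day 31 by 0.30 ± 0.14, also not called (edgeR adjusted p = 0.159). Some but not all alternative settings called this fall, among them edgeR on the libraries of those days alone (adjusted p = 0.0274). Its change between days 16 and 23 turned on the day 16 libraries, at 0.23 without replicate 1 and -0.52 without replicate 2, where edgeR called it (adjusted p = 0.00131).

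IER2 encodes a small nuclear protein that is induced together with FOS and EGR1 by serum. Its level (ENSG00000160888, chr19:13150411-13154911, plus strand) was 353 and 288 CPM on day 16, 370 and 274 on day 23, 350 and 324 on day 31, 320 and 287 on day 38, and 209 and 174 on day 45. Days 31 and 38 did not overlap each other but both overlapped days 16 and 23, and day 45 lay below all of them. IER2 fell by 0.66 ± 0.14 (log2, SE) between days 38 and 45 (edgeR adjusted p = 0.0013), but was no longer called without replicate 2 of day 45 (log2 fold change -0.534, edgeR adjusted p = 0.0593). Long noncoding RNA genes on the opposite strand cover 30.7% (946 bases) and 21.5% (662 bases) of its exon bases, so its level is uncertain in the same way as that of JUNB.

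**Figure D3:**
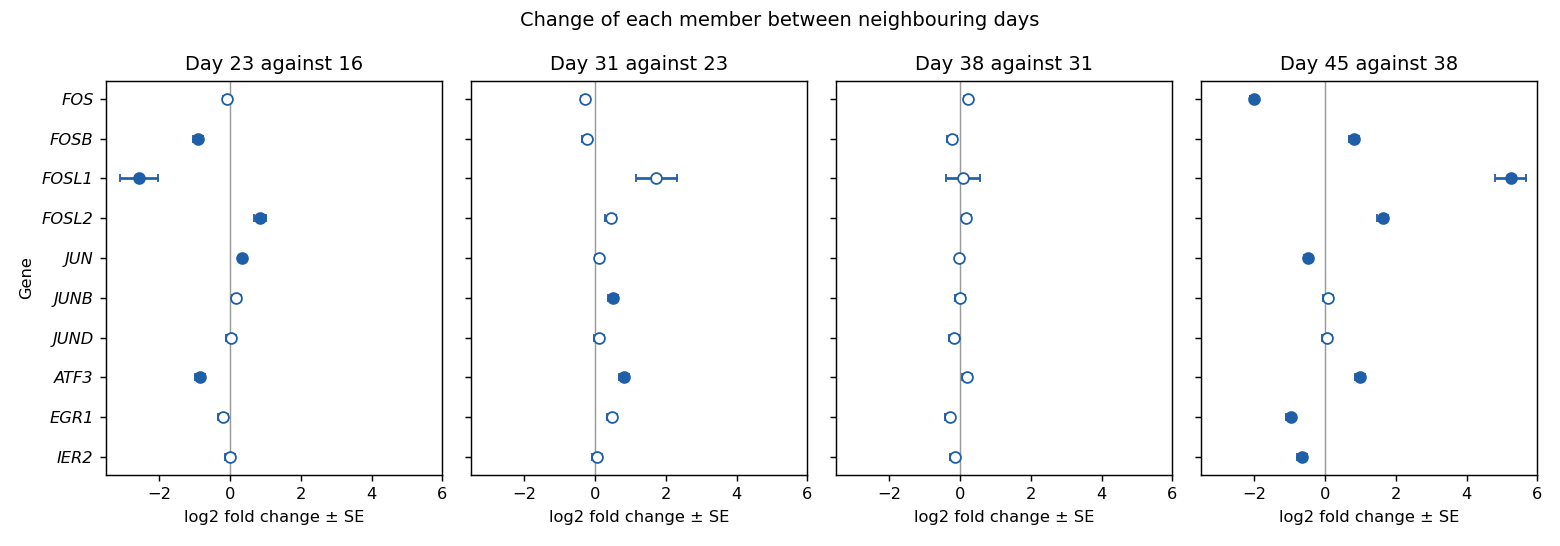
The log2 fold change ± SE of each member (horizontal axis) between neighbouring days, 1 panel per step, with filled points for members called by edgeR at an adjusted p below 0.05. The points lie near 0 and open at the step to day 38, and spread from -2.02 for FOS to 5.25 for FOSL1 at the step to day 45.

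Counted over the members, 5 of 10 were called between days 16 and 23, where 10.9% of all genes tested were. FOSL2 and JUN rose, and FOSB, FOSL1 and ATF3 fell, against 5.60% of all genes higher and 5.33% lower. Between days 23 and 31, the 2 members called were JUNB and ATF3, both higher, with 2.25% of all genes called, 1.58% higher and 0.666% lower. This count depended on the fit: DESeq2 called 3 members and 2.78% of all genes, adding FOS as lower, and edgeR called 4 with no low-count filter (2.76% of all genes) or with a replicate block (3.23%), adding EGR1 and FOSL1 as higher. Between days 31 and 38, where the sample labels change from c-AMP to TSH and dexamethasone, 15.0% of all genes were called, 8.80% higher and 6.23% lower, and 0 of the 10 members by edgeR or by DESeq2, which called 16.0% of all genes. FOS and EGR1 were the 2 members with an unadjusted edgeR p below 0.05 at that step, with log2 fold changes of 0.23 ± 0.11 and -0.30 ± 0.14. With a replicate block, edgeR called EGR1 at that step, with 16.5% of all genes. Without TMM factors, which moves the median of all genes at that step by -0.20, EGR1 and FOSB were called as lower, with 16.9% of all genes called, and the share of all calls that were higher went from 58.5% to 33.3%.

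Between days 38 and 45, 8 of 10 members were called, with 11.2% of all genes. The 4 that rose were FOSB, FOSL1, FOSL2 and ATF3, with 4.85% of all genes higher. The 4 that fell were FOS, JUN, EGR1 and IER2, with 6.35% of all genes lower. The members' median log2 fold change was 0.07 and that of all genes -0.02, so the moves in both directions left the centre of the group near that of all genes. DESeq2 also called 8 members at this step, with 12.2% of all genes. Of the members called by edgeR, 3 (FOS, FOSL1 and FOSL2) had an absolute log2 fold change of at least 1. Of all genes tested, 5.72% were called with such a change. From day 16 to day 45, 8 members were called, with 24.6% of all genes. FOSL1, FOSL2, JUNB and ATF3 were higher, and FOS, FOSB, EGR1 and IER2 were lower. In the test for any difference between days 9 of 10 members were called, with 36.3% of all genes.

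**Figure D4:**
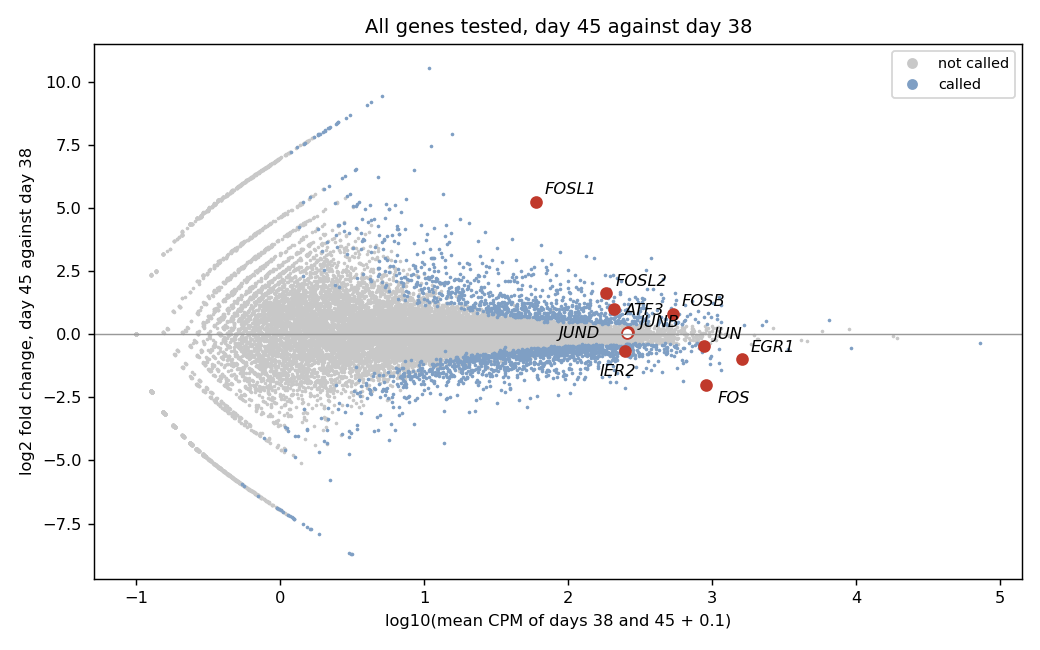
The log2 fold change from day 38 to day 45 (vertical axis) against the log10 of mean CPM over those days plus 0.1 (horizontal axis) for the 21014 genes tested, with called genes in blue, other genes in grey and the members in red (open where not called). FOS, at -2.02, and EGR1, at -0.98, lie low among genes of high level, FOSL1 lies at 5.25, and JUNB and JUND lie at the zero line.

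Of 6 other EGR factors and EGR corepressors tested, 4 rose at the step to day 45, where EGR1 fell, none fell and 2 were not called (EGR4 and WT1), with a median log2 fold change of 1.53. EGR3, which like EGR1 binds GC-rich elements, was at 16.4 and 16.9 CPM on day 38 and 167 and 151 on day 45 (log2 fold change 3.25 ± 0.41, edgeR adjusted p = 3.61e-07). EGR2 was at 25.1 and 30.3 CPM on day 38 and 121 and 123 on day 45 (2.14 ± 0.28, edgeR adjusted p = 9.38e-07). NAB1, which encodes a corepressor that binds EGR proteins, was at 92.8 and 106 CPM on day 38 and 192 and 185 on day 45 (0.92 ± 0.15, edgeR adjusted p = 2.26e-05). For these genes the libraries of the 2 days did not overlap, which was a condition for naming them. No overlap was also found for 11511 of the 21014 genes tested. NAB2 was the other gene of this list that rose.

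Among other immediate early genes at this step, 15 of 27 tested were higher, 5 lower and 7 not called, with a median of 0.54. NR4A3, which encodes an orphan nuclear receptor, went from 27.0 and 39.2 CPM to 291 and 244 (log2 fold change 3.01 ± 0.18, edgeR adjusted p = 6.26e-14). Its relative NR4A2 went from 14.8 and 15.1 CPM to 122 and 110 (2.96 ± 0.36, edgeR adjusted p = 1.85e-07). KLF4, a Krüppel-like zinc finger factor, went from 21.6 and 16.9 CPM to 127 and 116 (2.65 ± 0.21, edgeR adjusted p = 4.14e-11). SOCS3, ID1 and IER5L were the genes that fell furthest, by 1.68, 1.25 and 1.20 on the log2 scale.

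These 3 risers, EGR3 and DUSP5 had fallen between days 16 and 23, as FOSB, FOSL1 and ATF3 had by edgeR, while FOS was not called between those days. NR4A3 fell from 227 and 182 CPM on day 16 to 23.9 and 29.5 on day 23 (log2 fold change -2.94 ± 0.18, edgeR adjusted p = 8.02e-14). NR4A2 fell by 3.99 ± 0.42 (log2, SE; edgeR adjusted p = 1.01e-08), KLF4 by 2.56 ± 0.22 (edgeR adjusted p = 8.40e-11), DUSP5 by 3.42 ± 0.38 (edgeR adjusted p = 4.09e-08) and EGR3 by 2.53 ± 0.46 (edgeR adjusted p = 0.000156). At that step 6 of 27 other immediate early genes rose and 11 fell, with 5.60% of all genes higher and 5.33% lower. Of the 15 that rose at the step to day 45, 7 had fallen by day 23, 3 had risen (KLF6, ZFP36 and RHOB) and 5 had not been called, and of the 4 members that rose, FOSL2 had also risen by day 23. Of the 7 MAP kinase feedback genes that rose, 2 had fallen by day 23 (DUSP5 and DUSP6), DUSP8 had risen and 4 had not been called. Of the 4 other EGR factors and corepressors that rose, EGR3 and NAB1 had fallen by day 23 and 2 had not been called. Among the heat shock genes described below, 7 rose, of which 3 had risen by day 23, 4 had not been called and none had fallen. Of 6 risers among the target genes described below, MMP1 had fallen, 3 had risen and 2 had not been called. The fall of MMP1 rested on 1 library near the floor. Its day 16 mean was 0.570 CPM, with 0 in replicate 2 and in both day 23 libraries. The share that had fallen by day 23 among all genes that rose at the step to day 45 was not computed. Of the 27 other immediate early genes, 12 rose and 1 fell at the step to day 31 (1.58% and 0.666% of all genes). At the step to day 38, 8 rose and 6 fell (8.80% and 6.23% of all genes).

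Among 20 factors and kinases upstream of these genes, 2 rose and 2 fell from day 38 to day 45, with a median of -0.05. SRF, which encodes the serum response factor itself, rose from 37.9 and 27.9 CPM to 130 and 115 (log2 fold change 1.89 ± 0.22, edgeR adjusted p = 1.24e-07), and ATF1, of the CREB family, rose by 1.02. MAP3K1 fell by 0.78 and MRTFB, an SRF coactivator gene, fell by 0.44. CREB1 and the ERK genes were among the 16 not called. Of 15 MAP kinase feedback genes 7 rose, 2 fell and 6 were not called, with a median of 0.74. DUSP5, a nuclear ERK phosphatase gene, went from 7.56 and 6.52 CPM to 46.0 and 46.3 (2.71 ± 0.35, edgeR adjusted p = 6.88e-07), and DUSP14 and DUSP8 rose by 2.32 and 1.27. DUSP1, a phosphatase gene induced with FOS, went the other way, from 599 and 542 CPM to 460 and 421 (-0.37 ± 0.11, edgeR adjusted p = 0.0276), as did SPRY1 (-1.43).

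Of 20 genes reported as AP-1 or EGR1 targets, 6 rose, 2 fell and 12 were not called from day 38 to day 45, with a median of 0.15. HMOX1, the heme oxygenase gene, went from 3.13 and 2.91 CPM to 50.2 and 49.2 (log2 fold change 4.03 ± 0.46, edgeR adjusted p = 6.56e-08). CXCL8, the interleukin-8 gene, went from 121 and 82.4 CPM to 638 and 543 (2.54 ± 0.18, edgeR adjusted p = 2.81e-12), after a rise of 4.14 at the step to day 38. MMP1, an interstitial collagenase gene, rose by 2.60, while CD44 and VEGFA each fell by 0.58. The other AP-1 family zipper factors had 3 of 11 tested genes higher and none lower, with a median of 0.35. MAFF (1.47) and MAFG (1.22), which encode small MAF proteins, were among them.

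**Figure D5:**
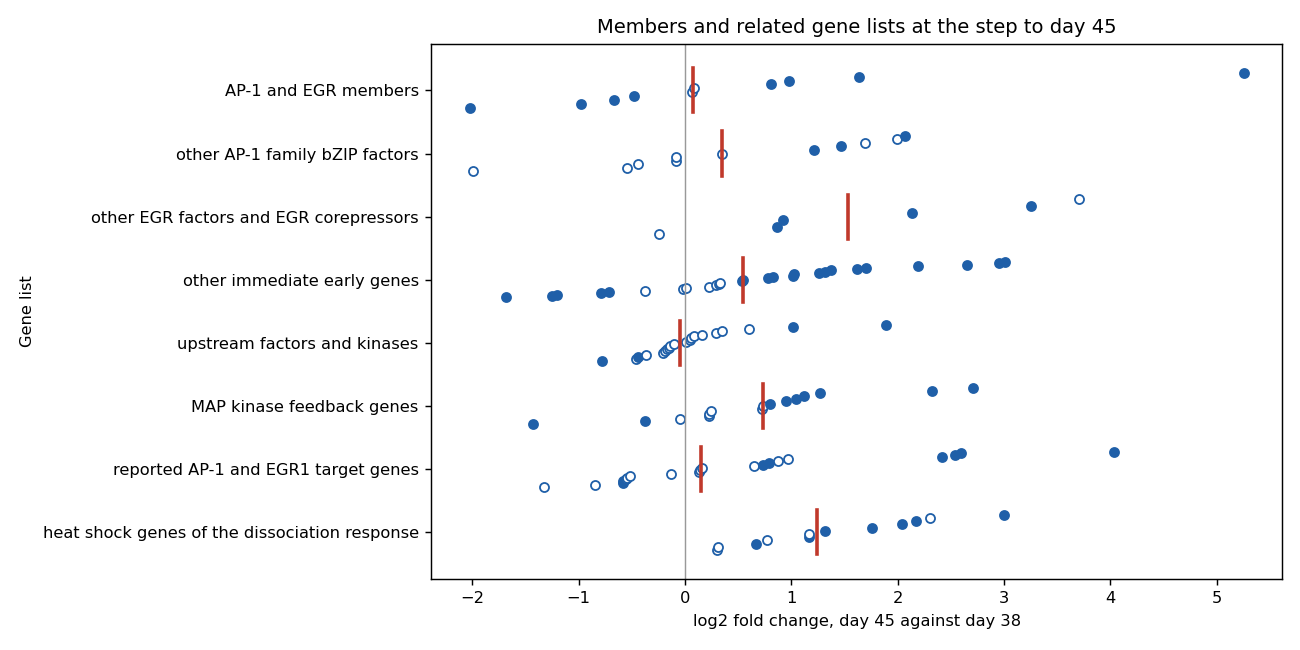
The log2 fold change from day 38 to day 45 (horizontal axis) of each tested gene in 8 gene lists (vertical axis), with filled points for called genes and a red bar at the list median. The members spread on both sides of 0 with a median of 0.07, whereas the other EGR genes have a median of 1.53 and the heat shock genes one of 1.24.

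Heat shock genes that are known to respond to cell handling were higher in the same day 45 libraries. Of 12 such genes 7 rose and none fell from day 38 to day 45, with a median log2 fold change of 1.24. Their summed level was 3666 and 3389 CPM on day 38 and 6774 and 7307 on day 45, and it lay between 2892 and 4431 on days 16 to 31. The most abundant was HSP90AB1 in the libraries of days 16 to 38 and HSP90AA1 at day 45, and none was at 0. HSPH1, a chaperone gene of the HSP110 family, had been at 407 and 402 CPM on day 23 and 456 and 417 on day 31, fell to 82.5 and 85.3 on day 38 and was at 630 and 714 on day 45 (a rise of 3.001 ± 0.132 on the log2 scale from day 38, edgeR adjusted p = 9.10e-18). The study gives ranges of enzyme incubation times for preparations of these organoids, and the time for each library is not given in the sources used here. The part of handling in the members' changes was not tested.

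Marker genes of other cell types were measured in the same libraries. The 6 fibroblast markers summed to 4209 and 4434 CPM on day 38 and 4400 and 3517 on day 45, against 898 to 1719 on days 16 to 31, with COL3A1 the most abundant throughout and none at 0; at the step to day 45 DCN and LUM rose and none fell. The 6 cardiovascular markers summed to 253 and 234 CPM on day 38 and 188 and 212 on day 45, with MYH6 the most abundant, and none was called. The 6 airway and goblet cell markers went from 70.9 and 54.4 CPM to 147 and 94.9, with MUC5B the most abundant at day 45 and SCGB1A1 at 0, and here KRT5 and MUC5B rose and MUC5AC fell. The 5 leukocyte markers went from 15.0 and 7.92 CPM to 48.3 and 50.2, most of it CD68, and 2 of 4 tested rose (CD68 and CD14), with CD3E at 0 in all libraries and PTPRC at 0 in one day 45 library. The 5 endothelial markers summed to 28.7 and 34.6 CPM on day 38 and 50.1 and 27.8 on day 45. Of the 10 thyroid markers, TG and DUOX2 rose at this step, by 0.57 and 0.59 on the log2 scale, and NKX2-1, HHEX and FOXE1 fell, by 1.20, 0.86 and 0.82 (edgeR), with 5 not called, in cells that had been sorted on NKX2-1 GFP. The part of these cell types in the members' changes was not tested.

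Likeness of time courses was measured as the root mean square difference between centred log2 CPM over the 10 libraries, among 13114 genes with a mean of at least 5 CPM. Closest to FOS were KC6 (0.203), VCAN (0.228), ADGRG2 (0.234), NLGN4X (0.238) and MYEF2 (0.242), where the median gene lay at 0.888. Closest to EGR1 were SIRT3 (0.170), LMNB2 (0.178), P2RX4 (0.182), TUBA1B (0.199) and the member IER2 (0.204), with a median of 0.599. Closest to JUN were RIN2 (0.061), ELMO2 (0.072), MRTFB (0.084), ATMIN (0.084) and TRPS1 (0.085), with a median of 0.447. Among the members the closest pair was EGR1 and IER2, followed by JUN and JUND (0.231), and the most unlike pair was FOS and FOSL1 (3.29). The measure is also small between genes that change little. JUND was called at no step and JUN was, so their small difference does not mean that they shared a course.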

How the data were processed

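RNA-seq counts were deposited by the authors as whole-number raw counts per gene symbol, with no normalization, 1 table per library. Per the labels and the study's methods, low-input libraries were sequenced as paired-end reads, trimmed with Trimmomatic, aligned with HISAT2 to GRCh38.p13 and counted with HTSeq; versions and the strand setting are not given in the sources used here. Unnamed lines alternate with the gene lines and hold no values. RN7SK took 2.92 to 8.17% of each library.

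Days and replicates were taken from the labels. Genes that reached 5 counts in 2 or more libraries were tested with edgeR 4.0.16 (R 4.3.3, limma 3.58.1) by the quasi-likelihood test with TMM factors, with 1 mean per day over 10 libraries and 5 residual degrees of freedom; a call is a Benjamini-Hochberg adjusted p below 0.05 over all genes tested. DESeq2 1.42.0 was an alternative, as were other scalings, filters, a 4-library fit, a replicate block and leaving out each library. Fits were tested on simulated data. With 2 libraries per day, p-values measure the spread between pooled samples of 1 line.

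Exon lengths came from GENCODE 44, which gave a single gene for 90.1% of symbols. Named list genes were the 3 called genes with the largest rise and the 3 with the largest fall per list and step, with a mean of at least 5 CPM and days that did not overlap. The members and lists were chosen with earlier results of these data known. cAMP-only libraries of days 38 and 45 were not analysed here, and some list genes are not reported here.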

Additional observations from a re-analysis of the deposited data

How the results depend on the processing

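Over 17 alternatives to each of 50 member log2 fold changes, 788 of 850 values kept their direction and side of the threshold, 17 lost a call, 20 gained one and 25 changed sign, the last all for changes that were not called. At the step from day 38 to day 45, the calls of FOS, FOSB, FOSL1, FOSL2, ATF3 and EGR1 held in all alternatives. With an absolute log2 fold change of at least 1 also required, members called numbered 1 (day 23 against 16), 0 (31 against 23), 3 (45 against 38) and 4 (45 against 16), where 5.63%, 1.34%, 5.72% and 15.5% of all genes passed. The 4-library fit called 3, 4 and 1 at the first 3 steps, with 9.30%, 1.93% and 20.9% of all genes. At the step to day 31, no low-count filter gave 4, with 2.76% of all genes, and filterByExpr 1, with 2.22%. At the step to day 38, no TMM factors gave 2, with 16.9% of all genes, and no low-count filter 1, with 14.1%. The cause of these moves was not tested.

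The replicate numbers were not taken as pairs, since replicate differences correlated between days at -0.032 to 0.0199 over all genes, although 5 of 10 members were higher in replicate 1 on each day. A fit with the replicate number as a block called 5, 4, 1 and 8 members at the 4 steps, adding EGR1 and FOSL1 at the step to day 31 and EGR1 at the step to day 38. It called 2703, 678, 3472 and 2691 of all genes, against 2296, 473, 3160 and 2353 without it.

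Leaving out each library in turn gave 4 to 5, 1 to 3, 0 to 1 and 7 to 8 members called at the 4 steps and 7 to 8 for day 45 against 16. All genes called then ranged from 1350 to 2383, 206 to 646, 1764 to 3613 and 1166 to 2815. In these fits a day left with 1 library was assumed to vary like the others. Uncalled changes whose sign turned ranged, for day 23 against 16, from -0.518 to 0.231 for EGR1, -0.229 to 0.205 for IER2 and -0.163 to 0.221 for JUND. EGR1 was called as lower at this step without replicate 2 of day 16. For day 31 against 23 they ranged from -0.134 to 0.300 for IER2 and -0.040 to 0.298 for JUND. For day 38 against 31 they ranged from -0.332 to 0.694 for FOSL1, -0.089 to 0.045 for JUN and -0.102 to 0.094 for JUNB. For day 45 against 38 they ranged from -0.107 to 0.256 for JUNB and -0.052 to 0.174 for JUND. For day 45 against 16 they ranged from -0.075 to 0.009 for JUN and -0.133 to 0.217 for JUND. Among scalings, no TMM factors gave -0.015 for ATF3, -0.138 for FOSL1 and -0.051 for FOSL2 at day 38 against 31, and -0.064 for JUND at day 45 against 16. At day 23 against 16, upper-quartile factors gave -0.032 for IER2 and -0.020 for JUND, and the replicate block gave -0.002 for IER2.

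The limits are 2 libraries per day from 1 line, medium that changes with day, and the low counts of FOSL1 before day 45.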

Other observations

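Glucocorticoid response genes and heat shock genes moved at the step to day 38. No member was called there by DESeq2 or in the edgeR fit described above, though some alternative settings called EGR1. Of 6 dexamethasone response genes 4 rose and none fell, with a median log2 fold change of 1.14 where that of all genes was 0.00. FKBP5, which encodes a co-chaperone of the glucocorticoid receptor, went from 34.1 and 39.8 CPM on day 31 to 142 and 157 on day 38 (log2 fold change 2.01 ± 0.23, edgeR adjusted p = 3.98e-08), and SGK1 and ZBTB16 rose by 1.15 and 1.87. Of 12 heat shock genes 5 fell and 2 rose at the same step, HSPH1 the furthest (-2.38 ± 0.13, edgeR adjusted p = 3.36e-16). At the step to day 45 none of the 6 dexamethasone response genes was called by edgeR. Among the targets, VEGFA, the angiogenic growth factor gene, rose by 2.96 ± 0.12 at the step to day 38 (edgeR adjusted p = 3.94e-19) and CD44 fell by 1.78 ± 0.13 (edgeR adjusted p = 1.26e-12).

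The replicate numbers of the members did not fall evenly. FOSL2, JUNB, JUND, EGR1 and IER2 were higher in replicate 1 than in replicate 2 on each of the 5 days, that is 5 of 10 members. The same held for 2.62% of all genes tested, and the opposite for 2.81%. FOS, FOSL1, JUN and ATF3 were higher in replicate 1 on 4 of 5 days and FOSB on 2. This was noticed after the values were seen, and its cause was not tested.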
